A study of Mus musculus with 55 samples.

Results

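The guanylate-binding protein genes Gbp2, Gbp2b, Gbp3, Gbp4, Gbp5, Gbp6, Gbp7, Gbp8 and Gbp9 were followed in mouse haematopoietic stem and progenitor cells. They were taken by symbol, and each of the 9 has 1 row among the 55421 rows of a first count table and 1 among the 35976 usable rows of a second. The first table holds 46 bulk RNA-seq libraries from 6 sorted bone marrow populations: long term haematopoietic stem cells (LT-HSC, Lin-cKit+Sca1+CD48-CD150+), short term haematopoietic stem cells (ST-HSC, CD48-CD150-), and 4 kinds of progenitor, namely CMP (common myeloid), GMP (granulocyte and macrophage), MEP (megakaryocyte and erythroid) and CLP (common lymphoid). Each population has 4 libraries labelled Tet2 knockout and 4 from wildtype (WT) mice, or 3 from WT in the case of both stem cell populations. A second table, of 9 libraries, covers LT-HSC alone, with 3 from WT, 3 from Sting-/- and 3 from the double knockout (DKO; Tet2 f/f, Sting-/-, Mx1-Cre).

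All mice were C57BL/6. The Tet2 knockout is Tet2 f/f with Mx1-Cre, whose promoter answers to interferon and was induced with poly(I:C) at 4 weeks of age, and the study's text on the first set places its analysis 16 weeks after induction. For the second set that interval is not given in the sources used here. That text does not say plainly whether WT and Sting-/- mice also received poly(I:C), and the part of that agent in the differences was not tested. Sting-/- is a germline deletion. The labels give 200 sorted cells per library, and the study's methods give another number. The same mouse numbers recur across populations, and the labels do not say whether 1 mouse gave several libraries, so p-values measure the spread between these libraries.

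Guanylate-binding proteins are large GTPases of the dynamin type that cells make in response to interferons, above all interferon gamma, in part through the interferon regulatory factors. Gbp2, Gbp2b and Gbp5 end in a CaaX box, the signal for a lipid anchor. The proteins assemble on pathogen membranes and on the vacuoles that hold pathogens, together with the immunity-related GTPases (IRGs), and help to open them and to start inflammasome signalling. In the mouse they lie in clusters on chromosomes 3 and 5. Haematopoietic stem cells carry interferon receptors, and a type I or type II interferon signal is known to push them out of quiescence.

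On chromosome 3 (mm10, plus strand) the genes follow each other as Gbp5 at chr3:142493978-142522344, Gbp7 at chr3:142530342-142550149, Gbp3 at chr3:142560026-142573209, Gbp2b at chr3:142594847-142619179 and Gbp2 at chr3:142620602-142638008. On the minus strand of chromosome 5 lie Gbp8 at chr5:105014150-105139540, Gbp9 at chr5:105077630-105139539, Gbp4 at chr5:105115767-105139586 and Gbp6 at chr5:105270702-105293698. The spans of Gbp4, Gbp8 and Gbp9 overlap and start at nearly the same base, where Gbp8 shares 61 exonic bases with Gbp4 and Gbp9 shares 60. The sequences of Gbp6 are the least unique, since 42.7% of the 75-base pieces of its transcripts also occur in another gene of the family, mostly Gbp10, while the share is 8.0% for Gbp8 and at most 3.6% for the other 7. Reads that fit both Gbp6 and Gbp10 could have been counted for either.

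The promoters of the 5 genes on chromosome 3 are shown for the interferon motifs they hold, and they are the members' promoters used here. They are RefSeq sequences of build GRCm38.p6, the plus strand from 250 bases before to 50 bases after the start site. Capitals mark the core of the interferon-stimulated response element (ISRE), TTTCNNTTTC, and the gamma-activated site (GAS), TTCNNNGAA, both searched on both strands.
Gbp5 promoter: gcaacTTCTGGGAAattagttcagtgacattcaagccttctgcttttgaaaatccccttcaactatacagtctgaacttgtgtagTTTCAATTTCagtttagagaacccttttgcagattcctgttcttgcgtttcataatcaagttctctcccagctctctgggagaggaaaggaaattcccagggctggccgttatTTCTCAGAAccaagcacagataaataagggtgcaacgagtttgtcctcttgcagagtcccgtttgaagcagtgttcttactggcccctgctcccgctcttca
Gbp7 promoter: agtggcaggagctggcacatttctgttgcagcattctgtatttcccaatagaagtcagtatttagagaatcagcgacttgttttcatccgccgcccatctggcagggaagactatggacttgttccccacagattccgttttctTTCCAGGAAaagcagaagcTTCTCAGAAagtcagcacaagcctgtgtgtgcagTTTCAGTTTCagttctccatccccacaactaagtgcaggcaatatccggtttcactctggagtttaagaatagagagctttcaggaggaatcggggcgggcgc
Gbp3 promoter: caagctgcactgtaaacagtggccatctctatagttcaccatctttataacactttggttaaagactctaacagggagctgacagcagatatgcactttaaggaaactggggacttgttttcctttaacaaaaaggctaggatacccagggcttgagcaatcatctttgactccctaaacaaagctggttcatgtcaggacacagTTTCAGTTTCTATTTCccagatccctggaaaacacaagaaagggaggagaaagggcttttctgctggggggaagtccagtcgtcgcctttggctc
Gbp2b promoter: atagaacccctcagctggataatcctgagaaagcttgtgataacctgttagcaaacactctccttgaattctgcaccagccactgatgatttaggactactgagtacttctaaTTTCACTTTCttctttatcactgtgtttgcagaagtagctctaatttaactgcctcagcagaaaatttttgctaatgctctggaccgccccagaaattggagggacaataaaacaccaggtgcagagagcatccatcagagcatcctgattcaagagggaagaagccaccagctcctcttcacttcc
Gbp2 promoter: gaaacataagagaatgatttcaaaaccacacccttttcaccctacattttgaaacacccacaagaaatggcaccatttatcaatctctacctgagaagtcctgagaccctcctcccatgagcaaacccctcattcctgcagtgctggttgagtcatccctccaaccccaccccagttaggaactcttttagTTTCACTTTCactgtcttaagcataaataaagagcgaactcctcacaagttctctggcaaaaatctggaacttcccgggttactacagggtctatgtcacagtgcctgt

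These windows are chr3:142496684-142496983 (Gbp5), chr3:142530086-142530385 (Gbp7), chr3:142559794-142560093 (Gbp3), chr3:142594597-142594896 (Gbp2b) and chr3:142620413-142620712 (Gbp2). The ISRE core began 165 bases before the start site in Gbp5, 53 in Gbp7, 137 in Gbp2b and 59 in Gbp2. Gbp3 had it at 45 and again, overlapping, at 39 bases before its start, and a second listed start of Gbp3 had neither motif. The GAS letters occurred in Gbp5 at 245 and 52 bases and in Gbp7 at 106 and 87 bases before the start. Of 32851 RefSeq promoters of this length, 3.44% held the ISRE core, 8.30% the GAS letters and 0.450% both. Gbp4, Gbp6, Gbp8 and Gbp9 have no sequence shown here.

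Depth ran from 50458473 to 102148079 counts per library in the first table (median 70118186.5) and from 26776517 to 78682096 in the second (median 40641627). The reads of Tet2 itself overlapped between the genotypes in LT-HSC, where the libraries labelled knockout had 27.2, 12.1, 16.1 and 40.4 CPM (a unit that sets the counts of a gene against the scaled total of its library) against 14.04, 14.35 and 11.28 in WT. In the second set Tet2 was at 24.7, 0 and 0 CPM in WT, 9.56, 41.9 and 1.51 in Sting-/- and 41.4, 19.6 and 1.30 in DKO, so 2 of the 3 WT libraries lay below every DKO library. For Tmem173, which encodes STING, the WT group held 45.3, 34.1 and 0 CPM, the Sting-/- group 122, 0 and 63.5, and DKO 0, 0.191 and 26.2, so both knockout groups overlapped with WT. The reads of neither gene separated the labels. Counts summed over a gene also include transcripts that lack an exon, so the libraries are named by their labels and every direction between genotypes rests on those. Some defining markers fitted the sorts of the first table, with Slamf1 at a mean of 50.7 CPM in WT LT-HSC and 0.537 in WT ST-HSC, and Mpo at 21000 CPM in WT GMP. Others fitted less well. Cd48, by whose absence both stem cell populations were sorted, was at 7.49 CPM in WT LT-HSC and 45.1 in WT ST-HSC, against 319 in WT CMP. Klf1 was at 307 CPM in WT MEP and 35.1 in MEP labelled knockout. In CLP, Il7r was at 513 CPM in WT but Rag1 was at 0. Ighm, the heavy chain of B cells, took 10.3% to 15.9% of the counts in WT CLP and 0.0616% to 9.84% in the CLP libraries labelled knockout. CLP replicate 2 labelled knockout stood apart, with a median rank correlation of 0.733 to its group against 0.815 to 0.828 for the other 3.

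In WT cells most of the family divided by chromosome, with Gbp5 as the exception. Gbp2, Gbp2b, Gbp3 and Gbp7 of chromosome 3 were read in every population, whereas on chromosome 5 Gbp4, Gbp6, Gbp8 and Gbp9 were present in LT-HSC, ST-HSC and CLP and close to 0 in CMP, GMP and MEP. In those 3 myeloid and erythroid populations, over both genotypes, the highest library reached 0.164 CPM for Gbp4, 0.938 for Gbp9, 1.38 for Gbp8 and 3.70 for Gbp6. In bulk samples, fewer cells that carry a transcript and less of it per cell cannot be told apart.

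Compared per length, as mean CPM per kilobase ± SD, Gbp7 led in WT LT-HSC at 22.3 ± 4.84 (n = 3), followed by Gbp2 at 17.2 ± 6.02, Gbp3 at 9.16 ± 2.32 and Gbp2b at 8.05 ± 3.06. Gbp6 (3.58 ± 1.11), Gbp8 (2.99 ± 0.377), Gbp4 (2.07 ± 0.770), Gbp9 (0.924 ± 0.458) and Gbp5 (0.633 ± 0.556) came below them. The neighbours Gbp7 and Gbp2, Gbp3 and Gbp2b, Gbp6 and Gbp8, and Gbp9 and Gbp5 differed by less than the larger of their SDs. Gbp5 levels per length rest on a length of 3021 bases, and with the 6637 exonic bases of the reference Gbp5 was at 0.288 CPM per kilobase in WT LT-HSC. ST-HSC had the same leaders in another order, with Gbp2 at 23.2 ± 5.10, Gbp7 at 18.5 ± 2.81 and Gbp3 at 16.2 ± 6.02 CPM per kilobase.

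Gbp3 took the first place in CMP and GMP. Its level per length in WT was 13.2 ± 2.04 CPM per kilobase in CMP, against 10.1 ± 1.18 for Gbp7, and 24.4 ± 4.16 in GMP, against 6.25 ± 2.14 for Gbp7 (n = 4). In MEP the order turned, with Gbp7 at 9.91 ± 1.21 and Gbp3 at 4.03 ± 1.37. Gbp2 and then Gbp2b followed them in all 3 of these populations. In WT CLP, Gbp4 (21.2 ± 9.35 CPM per kilobase) and Gbp2 (21.1 ± 18.8) were highest and Gbp5 (1.84 ± 3.63) lowest, but each neighbouring pair differed by less than the larger SD. With reference lengths Gbp2 (20.6) stood before Gbp4 (14.8) in CLP, and Gbp5 was at 0.837.

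**Figure D1:**
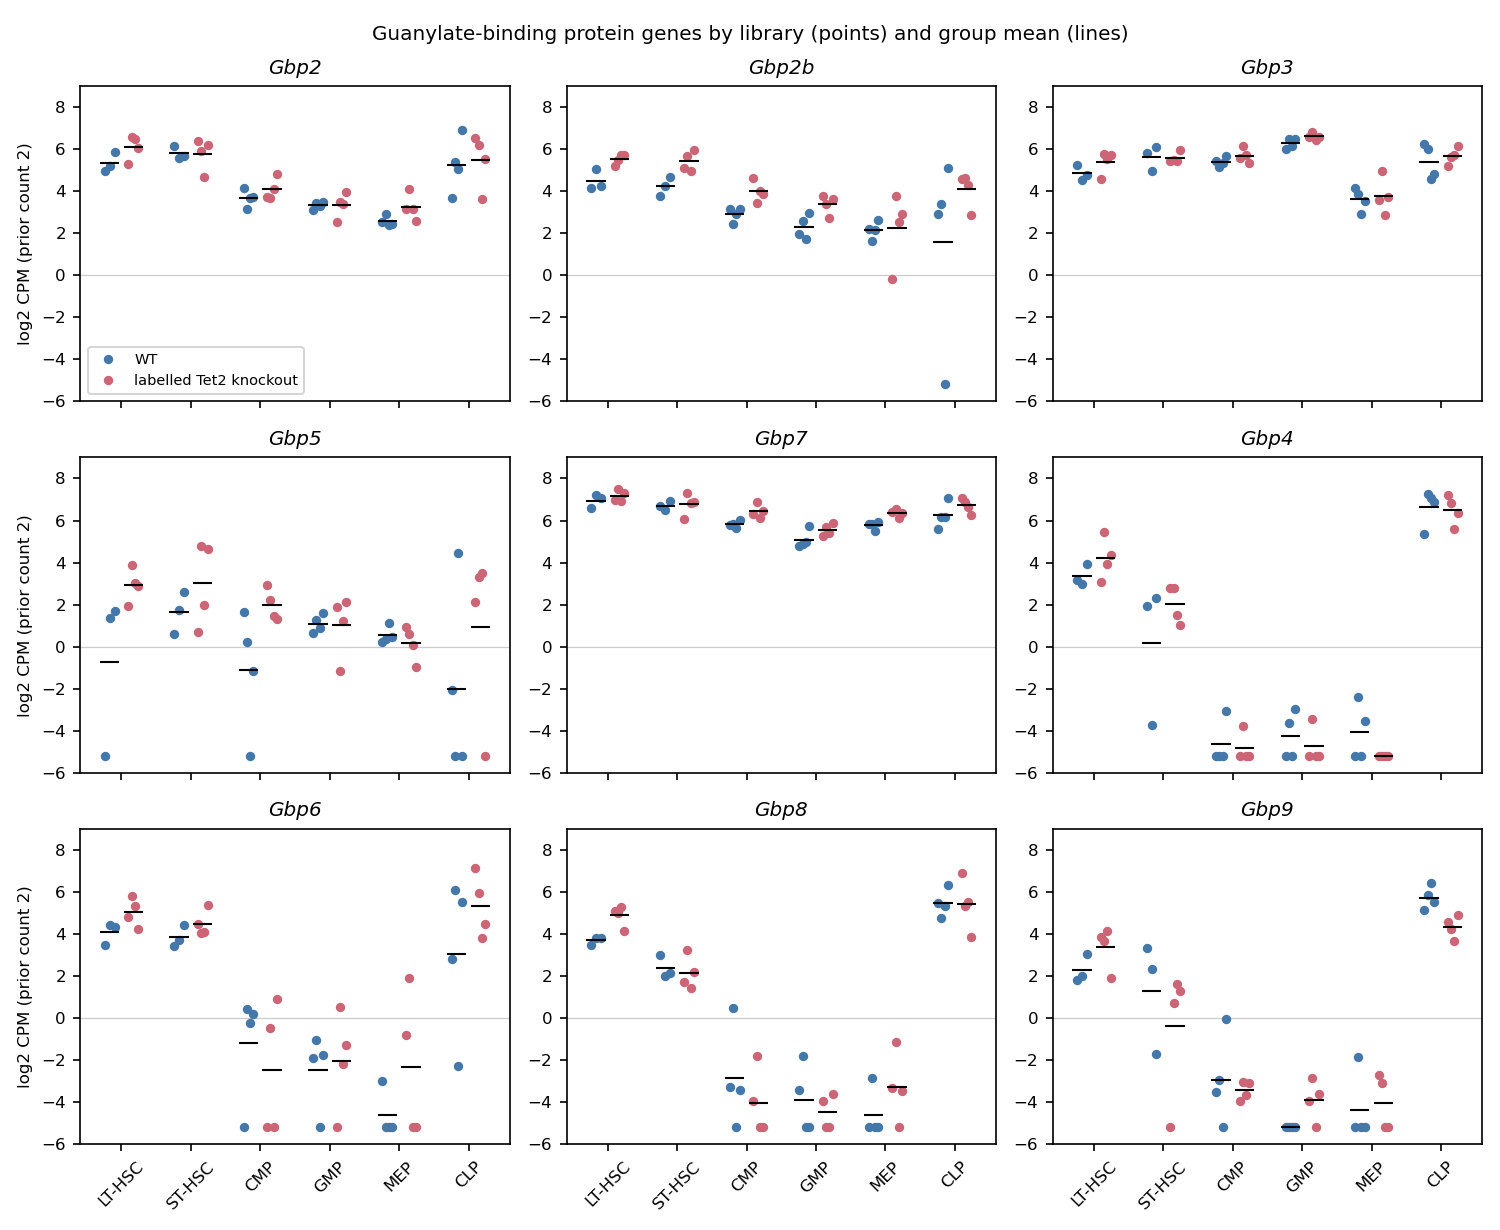
Each panel is 1 gene, with log2 CPM (prior count 2) on the vertical axis and the 6 populations on the horizontal axis; points are libraries, WT in blue and labelled Tet2 knockout in red, and lines are group means. Gbp4, Gbp6, Gbp8 and Gbp9 fall close to the bottom of the scale in CMP, GMP and MEP, while Gbp3 and Gbp7 stay above 2 in every library.

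Differences among the WT populations were tested over the 23 WT libraries with edgeR (quasi-likelihood test, Benjamini-Hochberg adjustment over all genes). An F-test over the 6 populations passed at an adjusted p of 0.05 for 7 of the 9 genes, where 44.6% of all genes passed. The adjusted p was lowest for Gbp4 (1.09e-06) and Gbp2 (2.48e-05), and the test did not pass for Gbp2b (0.189) or Gbp5 (0.851). Of Gbp2b, the gene once named Gbp1, single libraries spread widely, most of all in WT CLP with 7.59, 10.5, 0 and 34.8 CPM. Gbp5, which helps NLRP3 inflammasomes to assemble, was read at 0 to 6.07 CPM in all WT libraries but 1, CLP replicate 4 with 22.0 CPM.

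Along the steps of the textbook tree, a call needed an adjusted p under 0.05 and at least 2-fold. From ST-HSC to CMP, all 9 genes had a lower fitted level, 2 were called, Gbp2 and Gbp4, and 5 lay lower in every CMP than in every ST-HSC library, against 5.0% of all genes called and 13.0% lower in every library. Gbp2, which coats vacuoles of parasites, went from 71.2, 48.3 and 51.0 CPM in WT ST-HSC to 17.5, 8.79, 12.7 and 13.2 in WT CMP, a log2 difference of -2.13 (SE 0.48, adjusted p = 0.00992). Gbp4 went from 3.80, 0.0470 and 4.95 CPM to 0, 0, 0 and 0.0912, with a fitted log2 difference of -5.83 (adjusted p = 0.00770). The low ST-HSC library of Gbp4, replicate 3, overlapped with CMP. The 5 genes with groups apart were Gbp2, Gbp2b, Gbp6, Gbp7 and Gbp8. DESeq2 called 4 members in this step, where it called 11.5% of all genes. The summed level of 7 dendritic cell markers was also lower, from 207 to 382 CPM in WT ST-HSC to 84.8 to 94.5 in WT CMP. Other lists were higher in CMP: B cells (130 to 139 against 163 to 231 CPM), T and NK cells (178 to 278 against 371 to 430) and macrophages and monocytes (6.9 to 9.46 against 34.6 to 81.1). The part of these markers was not tested.

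The call of Gbp4 in that step was lost without WT replicate 2 (adjusted p = 0.0841) or replicate 5 (0.0749), and that of Gbp2 without replicate 3 (0.121), where Gbp8 was called instead (log2 difference -6.34, adjusted p = 0.0175). Gbp7, needed for the oxidase that kills engulfed bacteria, had the smallest log2 difference of these 5, from 102.3, 89.4 and 121 CPM to 54.9, 56.7, 49.9 and 65.8, a log2 difference of -0.88 (SE 0.29, adjusted p = 0.0740). The groups of Gbp7 did not overlap.

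From ST-HSC to CLP, Gbp4 was the 1 gene called, with 24.5% of all genes called, and 3 of the 9, Gbp4, Gbp8 and Gbp9, were higher in every CLP library, as were 9.64% of all genes. WT CLP libraries held 40.7, 151, 135 and 118 CPM of Gbp4, a log2 difference of 5.26 (SE 1.45, adjusted p = 0.0104), and this call was lost without WT replicate 3 (0.0509) or 5 (0.0638). For Gbp5 the log2 difference was 0.67 (SE 1.97, adjusted p = 0.879), and without WT replicate 4 its direction turned and it was called lower in CLP (-5.22, adjusted p = 0.0402). Gbp8 was at 43.8, 27.1, 39.9 and 79.2 CPM in CLP against 7.96, 3.96 and 4.42 in ST-HSC, and Gbp9 at 35.8, 57.0, 84.8 and 46.1 against 9.99, 4.96 and 0.275. Their log2 differences, 3.13 (SE 1.52, adjusted p = 0.127) and 3.48 (SE 1.62, adjusted p = 0.115), did not pass. The summed level of 5 B cell markers was higher beside them, from 130 to 139 CPM in WT ST-HSC to 146000 to 269000 in WT CLP. That of 7 dendritic cell markers went from 207 to 382 CPM to 923 to 1670, and that of 8 macrophage and monocyte markers from 6.9 to 9.46 to 650 to 1810. Their part in these levels was not tested.

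From CMP onwards, Gbp3 was higher in every GMP library and lower in every MEP library. It had 43.5, 34.9, 39.8 and 50.4 CPM in WT CMP, 63.3, 88.8, 70.4 and 89.9 in WT GMP, and 18.0, 14.4, 7.56 and 11.7 in WT MEP, with no overlap in either direction. In MEP Gbp3 was called lower (log2 difference -1.75, SE 0.36, adjusted p = 0.00336), the 1 call of the family where 6.45% of all genes were called. That call was lost without WT replicate 5 (log2 difference -1.57, adjusted p = 0.0706). DESeq2 called 3 members in this step, Gbp2, Gbp3 and Gbp6, and 12% of all genes. Gbp2 was also lower in every MEP than in every CMP library, so that 2 of 9 were apart in that direction, with 14.2% of all genes (log2 difference -1.18, SE 0.45, adjusted p = 0.120). In GMP no member was called by edgeR (3.15% of all genes called), 3 had an unadjusted p under 0.05 (16.9%), and DESeq2 called 1 (7.32%). Gbp3, at a log2 difference of 0.92 (SE 0.35, adjusted p = 0.165), was the 1 gene higher in every library, as were 13.3% of all genes. That 1 gene of DESeq2 was Gbp9, which had no count in any of the 4 WT GMP libraries and at most 72 counts in a WT CMP library.

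Between LT-HSC and ST-HSC no member was called by edgeR (0.175% of all genes called), none had an unadjusted p under 0.05 (8.85% of all genes), and DESeq2 called 0 (3.76%). Gbp4, at 9.09, 7.99 and 15.5 CPM in WT LT-HSC, and Gbp8, at 11.2, 14.2 and 13.9, were higher there in every library than in ST-HSC, as were 7.32% of all genes. Their log2 differences were 1.85 (SE 1.27) and 1.24 (SE 1.47), and 3 against 3 libraries cannot give an exact permutation p below 0.1.

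The question of the first set was what changes in each population when Tet2 is deleted. In LT-HSC all 9 genes had a higher fitted level in the libraries labelled Tet2 knockout, with log2 differences of 0.23 to 2.18 and a median of 1.02, while 54.3% of all tested genes were above 0 and their median was 0.06. None was called by edgeR (0.0245% of all genes called), 3 had an unadjusted p under 0.05 (5.16%), and DESeq2 called 1, Gbp8 (1.49%). In 3 of the 9, Gbp2b, Gbp5 and Gbp8, every knockout library lay above every WT library, as in 3.20% of all genes. The genes share regulators, so they are not 9 independent observations.

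Gbp2b was at 36.2, 44.2, 52.6 and 52.2 CPM in the LT-HSC libraries labelled knockout and at 17.5, 33.4 and 18.8 in WT. The gap between the groups was small beside that between WT libraries, and the log2 difference was 1.01 (SE 0.31, adjusted p = 0.743, exact permutation p = 0.0286, the smallest that 4 against 3 libraries allow). Gbp8 was at 34.0, 32.1, 39.0 and 17.8 CPM against 11.2, 14.2 and 13.9, a log2 difference of 1.24 (SE 0.34, adjusted p = 0.615, exact permutation p = 0.0571). With DESeq2 the same difference of Gbp8 had an adjusted p of 0.0137. Gbp5 was at 3.83, 14.95, 8.13 and 7.41 CPM against 0, 2.57 and 3.16, and with 1 WT library at 0 its log2 difference was 2.18 with a wide SE of 1.34 (adjusted p = 0.998, exact permutation p = 0.0286). It was 3.17 with the replicate block and 1.60 without WT replicate 2, and neither was called.

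Gbp6 and Gbp9 overlapped between the genotypes of LT-HSC by 1 library each. Gbp6 held 27.8, 56.1, 39.97 and 18.7 CPM against 11.3, 21.2 and 20, a log2 difference of 1.04 (SE 0.42, adjusted p = 0.903, exact permutation p = 0.143). Gbp9 held 14.4, 12.7, 17.5 and 3.69 CPM against 3.46, 3.97 and 8.16. Replicate 5, the lowest knockout library of both genes, was also the lowest for Gbp8.

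Gbp2 had 39.1, 94.3, 89.6 and 66.3 CPM in LT-HSC labelled knockout against 31.2, 36.6 and 59.1 in WT, and 3 of the 4 lay above the highest WT library. Gbp3 (23.5, 54.8, 46.4 and 52.1 against 37.5, 23.01 and 27.5 CPM) had the same count of 3 above. Gbp4 had 8.31, 43.4, 15.4 and 20.2 CPM against 9.09, 7.99 and 15.5, and Gbp7, the most abundant of them, 125, 178, 122 and 157 against 95.1, 148 and 133. For Gbp4 and Gbp7 the groups overlapped more, with 2 knockout libraries above the highest WT library. The summed level of 5 megakaryocyte markers was apart in LT-HSC, at 147 to 403 CPM in the knockout libraries and 421 to 431 in WT. Most of that sum was Pf4, with a mean of 176 CPM in knockout against 346 in WT. Ppbp (9.36 against 16.4), Gp9 (45.6 against 49) and Gp1bb (0.387 against 0.478) were also lower, while Itga2b was higher (18 against 13.6). The genes of the sort were apart too, at 538 to 823 against 435 to 536 CPM, and the mitochondrial share overlapped at 8.822% to 14.495% against 8.017% to 9.499%. The dendritic cell markers, which hold class II genes, overlapped at 290 to 599 against 297 to 348 CPM, and the B cell markers at 51.4 to 97.3 against 46 to 67.8. The part of these measures in the levels of the family was not tested.

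In ST-HSC the direction was mixed. The fitted level was higher in 6 of 9 genes, where 53.1% of all genes were above 0, none was called by edgeR (0.0185% of all genes called), and 1 had an unadjusted p under 0.05 (6.13%). That was Gbp2b, also the 1 gene whose libraries were all higher (3.34% of all genes), and the 1 member that DESeq2 called (log2 difference 1.25, adjusted p = 0.0262), where it called 1.97% of all genes. Its libraries labelled knockout held 34.5, 51.0, 30.6 and 62.3 CPM against 13.4, 19.1 and 25.4 in WT, a log2 difference of 1.24 by edgeR (SE 0.35, adjusted p = 0.464, exact permutation p = 0.0286). The share of mitochondrial counts was also higher in every ST-HSC library labelled knockout (10.013% to 13.142%) than in every WT library (8.729% to 9.021%), and its part was not tested. Gbp5 split the knockout libraries, with 1.62, 28.0, 3.87 and 25.3 CPM against 1.497, 3.30 and 6.07 in WT. Gbp8 (3.29, 9.49, 2.67 and 4.60 against 7.96, 3.96 and 4.42 CPM), one of the leaders in LT-HSC, overlapped in ST-HSC.

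CMP was the population where Gbp2b came nearest to the threshold. Of the 6 genes that passed the filter on low counts, 5 had a higher fitted level (52.0% of all genes), 2 were higher in every library (6.77%) and none was called by edgeR (4.57% of all genes called), with 2 at an unadjusted p under 0.05 (19.1%) and 1 called by DESeq2 (7.05%). The genes that did not pass were Gbp4, Gbp8 and Gbp9, at or below 1.38 CPM in every CMP library. Gbp2b held 24.9, 10.9, 15.99 and 14.7 CPM in libraries labelled knockout and 8.74, 5.35, 7.47 and 8.74 in WT, a log2 difference of 1.12 (SE 0.29, adjusted p = 0.0510, exact permutation p = 0.0286). It was called by DESeq2 (adjusted p = 0.00257) and by edgeR without knockout replicate 3 (log2 difference 1.27, adjusted p = 0.0374). Over its alternatives the adjusted p ran from 0.00257 to 0.767.

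Gbp7 differed less between the genotypes of CMP, from 54.9, 56.7, 49.9 and 65.8 CPM in WT to 80.0, 116, 68.5 and 86.5 in the libraries labelled knockout. The groups did not overlap, and the log2 difference was 0.62 (SE 0.17, adjusted p = 0.0712, exact permutation p = 0.0286). Gbp5 was at 7.49, 4.67, 2.75 and 2.44 CPM against 3.09, 1.13, 0 and 0.417, with 2 knockout libraries above the highest WT library. Other measures were apart between the same CMP libraries. The summed level of 8 markers of MEP and erythroid cells was 2880 to 5730 CPM in those labelled knockout and 585 to 1670 in WT. Most of that sum was Car1, with a mean of 3600 CPM in knockout against 877 in WT. Klf1 (16.9 against 47.7) and Hbb-bs (8.81 against 11.5) went the other way, and the rest of the list was higher. The summed level of 5 B cell markers was 101 to 123 against 163 to 231 CPM, and the mitochondrial share was 7.852% to 8.373% against 5.944% to 6.568%. Their part in the differences of Gbp2b and Gbp7 was not tested.

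In GMP all 6 tested genes had a log2 difference above 0, against 52.9% of all genes, and the same 3 did not pass the filter. None was called by edgeR (4.37% of all genes called), 1 had an unadjusted p under 0.05 (17.3%), and DESeq2 called 1 (5.55%). Both times this was Gbp2b, at 13.6, 10.5, 6.50 and 12.3 CPM against 3.91, 5.99, 3.23 and 7.64 in WT, a log2 difference of 1.01 (SE 0.32, adjusted p = 0.0983, exact permutation p = 0.0571, DESeq2 adjusted p = 0.0246). One knockout library, replicate 4, fell below the highest WT library. The mitochondrial share was 4.736% to 5.094% in the GMP libraries labelled knockout and 3.642% to 4.598% in WT, and the summed level of 8 HSC markers was 17.5 to 35.9 against 12.6 to 17.4 CPM, with Hoxb5 at 0 in WT. Their part was not tested. Gbp3, the leading member in GMP, was at 94.0, 114, 85.0 and 96.6 CPM against 63.3, 88.8, 70.4 and 89.9, and 3 knockout libraries exceeded the highest WT library.

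MEP had 5 tested genes, of which 4 had a higher fitted level (54.2% of all genes), 1 was higher in every library (4.65%) and none was called by edgeR (4.36% of all genes called), with 2 at an unadjusted p under 0.05 (16.4%) and 0 called by DESeq2 (6.13%). The gene with groups apart was Gbp7, at 84.3, 94.6, 70.2 and 80.9 CPM against 57.7, 57.4, 45.99 and 61.8 in WT, a log2 difference of 0.55 (SE 0.14, adjusted p = 0.0585, exact permutation p = 0.0286). With DESeq2 its adjusted p was 0.00294, under the 2-fold limit. Gbp2 was at 8.75, 17.4, 8.996 and 5.90 CPM against 5.76, 7.39, 5.21 and 5.31 (log2 difference 0.78, SE 0.33, adjusted p = 0.283, exact permutation p = 0.0571). Without knockout replicate 3, the library at 17.4 CPM, the log2 difference was 0.40 (adjusted p = 0.584). Gbp2b was uneven in MEP, at 0.846, 13.8, 5.67 and 7.61 CPM against 4.56, 3.07, 4.46 and 6.09.

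In CLP 1 gene was lower in every library labelled knockout. There 7 of 9 log2 differences were above 0 (54.1% of all genes), none was called by edgeR (0.00766% of all genes called), 1 had an unadjusted p under 0.05 (3.65%), and DESeq2 called 1 (2.67%). The gene was Gbp9, lower in every library (1.82% of all genes), at 24.1, 18.9, 12.7 and 29.9 CPM in the libraries labelled knockout against 35.8, 57.0, 84.8 and 46.1 in WT. Its log2 difference was -1.45 (SE 0.47, adjusted p = 1, exact permutation p = 0.0286, DESeq2 adjusted p = 0.0264), and -1.51 without knockout replicate 2, the library that stands apart. B cell markers were also lower, with 5 of 5 found and a summed level of 674 to 132000 CPM in the knockout libraries and 146000 to 269000 in WT, none of them at 0 throughout. Knockout CLP replicate 3 held the most GMP (12400 CPM), megakaryocyte (1390) and HSC markers (195) of the CLP libraries. By group the GMP markers overlapped, at 2.65 to 12400 CPM in knockout and 4.77 to 3180 in WT. The megakaryocyte markers (0.154 to 1390 against 0.187 to 8.41) and HSC markers (1.49 to 195 against 2.39 to 13.7) overlapped too. The part of all these markers in the level of Gbp9 was not tested.

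The other genes of the family overlapped between the genotypes of CLP. Gbp4 was at 148, 113, 48.9 and 81.4 CPM against 40.7, 151, 135 and 118, and Gbp8 at 119, 40.6, 45.4 and 14.5 against 43.8, 27.1, 39.9 and 79.2. Gbp6 ranged over 142, 61.4, 13.8 and 22.0 CPM against 6.91, 67.5, 0.178 and 45.9. The knockout library that stands apart was the highest of its group for Gbp2, Gbp4, Gbp6, Gbp7 and Gbp8.

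**Figure D2:**
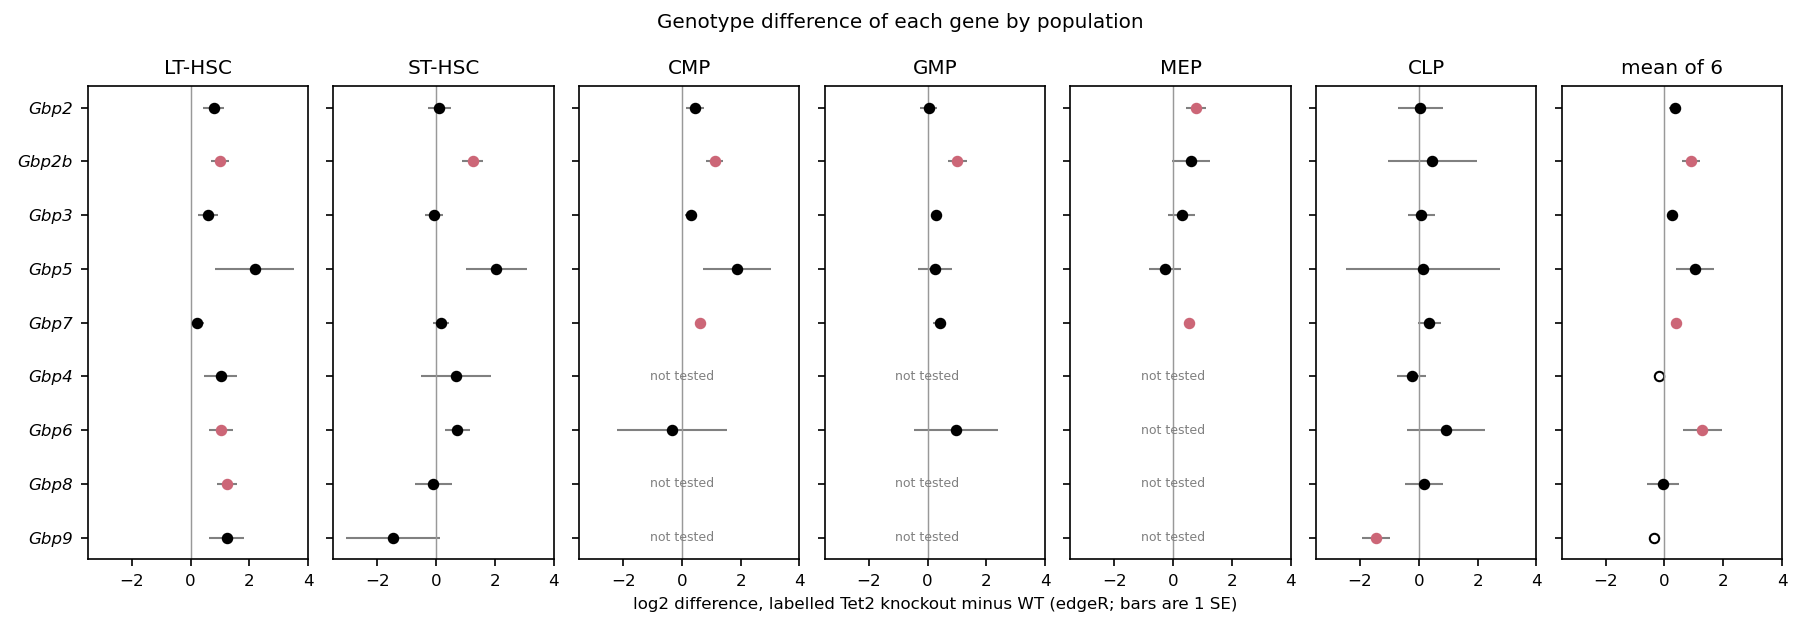
Log2 differences (labelled Tet2 knockout minus WT, edgeR) are on the horizontal axis with bars of 1 SE, 1 panel per population and a last panel for the mean of the 6, and genes on the vertical axis; red points have an unadjusted p under 0.05, and open circles have no SE because a group had no counts. Gbp2b lies to the right of 0 in each panel, and all 9 genes do in LT-HSC, while Gbp9 lies left in CLP.

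Averaged over the 6 populations, Gbp7 was the gene whose difference passed the adjusted p, but not the 2-fold limit of a call. Its mean log2 difference was 0.39 (SE 0.11, adjusted p = 0.0169), it was 0.38 with the mouse label as a random block (voom, adjusted p = 0.0335), and the adjusted p rose to 0.0801 without WT replicate 2, 0.0836 without WT replicate 3 and 0.114 without knockout replicate 3. Gbp2b had a larger mean, 0.91 (SE 0.31, adjusted p = 0.0752). Gbp6 had 1.29 (SE 0.67, adjusted p = 0.212), although it was near 0 in 3 of the populations, and 0.67 without knockout replicate 3.

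No member was called in this average by edgeR (3.49% of all genes called), 3 had an unadjusted p under 0.05 (17% of all genes), and 6 of 9 means were above 0, as were 55.9% of all genes. DESeq2 was not run on the average. One call appeared in each of 3 alternatives. Gbp2b was called with voom (1.16, adjusted p = 0.0446), where 3.21% of all genes were called, and without WT replicate 5 (1.20, adjusted p = 0.0427). Gbp5 was called without WT replicate 4 (2.02, adjusted p = 0.0195), against a mean difference of 1.03 (SE 0.64, adjusted p = 0.477) with all replicates. For the fits without a replicate no share over all genes is given. Whether the genotype differences were unequal between populations was tested by 5 interaction contrasts. No member passed (2.65% of all genes did), none had an unadjusted p under 0.05 (14% of all genes), and the lowest adjusted p was 0.429 for Gbp9, so no difference between populations was shown for any of the 9.

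Other genes of the pathway were taken from a list of 44 by role, all found in the first table. Most of their calls by edgeR were decreases and fell in CMP, GMP and MEP, where decreases also made up 629 of 734, 672 of 723 and 629 of 651 calls over all genes. Among receptors and kinases, Ifngr2, a chain of the interferon gamma receptor, was called lower in CMP (log2 difference -1.84), GMP (-2.07) and MEP (-1.45), and Ifnar2, a chain of the type I receptor, in CMP (-1.57) and MEP (-1.01). Of the genes that bring these GTPases to membranes, Atg3, a conjugating enzyme of autophagy, was called lower in CMP (-2.53), GMP (-3.21) and MEP (-2.33), and Sqstm1, the ubiquitin receptor p62, in CMP (-1.80) and MEP (-1.41). Of the enzymes that process the lipid-carrying CaaX ends of some family members, Rce1 was called lower in CMP (-1.85) and MEP (-2.05) and Fnta in MEP (-1.72). None of the 44 was called by edgeR in LT-HSC, ST-HSC or CLP, where DESeq2 called 2 higher in LT-HSC, 1 lower in ST-HSC and 2 lower in CLP, and over all genes 157 higher and 80 lower, 199 and 132, and 291 and 170. In MEP, DESeq2 called 5 of the 44 higher and 6 lower, with 117 and 932 over all genes, where edgeR called 1 and 6 of the 44.

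The partner GTPases of the IRG family were the role in which edgeR called increases. Igtp was called higher in MEP (log2 difference 1.65, SE 0.39, adjusted p = 0.0402), and Iigp1 in the average of populations (2.1, SE 0.58, adjusted p = 0.0159), and all 8 of this role had a log2 difference above 0 in LT-HSC, ST-HSC and the average, where 54.3%, 53.1% and 55.9% of all genes did. In CMP Irgm2 was below 0 (-0.07) and in CLP Igtp (-0.31) and Gm4951 (-0.01), while in GMP and MEP the 7 that were tested were above 0. Tgtp1 had a mean difference of 0.82 (SE 0.18, adjusted p = 0.00245), which is under 2-fold like that of Gbp7. In the average, where 394 of 22360 genes were called lower, 4 of the 44 were, Ifngr2 (-1.03), Atg3 (-1.25), Sqstm1 (-1.26) and Rce1 (-1.01). The transcription factor with the largest mean difference was Irf1 (-0.51, SE 0.20, adjusted p = 0.147), and among the inflammasome genes it was Il1b (-1.82, SE 0.74, adjusted p = 0.133). Neither was called.

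The second set compared LT-HSC labelled Sting-/- or DKO with WT. No library labelled as knockout of Tet2 alone was analysed in it, so DKO against WT differs by label in both genes and DKO against Sting-/- in Tet2. The DKO mice also carried Mx1-Cre and received poly(I:C), and the study does not say plainly whether the Sting-/- and WT mice did. The part of Cre and poly(I:C) in these comparisons was not tested. HSC markers were present in all 9 libraries (summed level 616 to 1330 CPM). Gbp4 was at 112, 7.80 and 0.0703 CPM in WT, 60.7, 0 and 0.728 in Sting-/- and 0.0617, 103 and 55.6 in DKO. Gbp8 was at 29.3, 111 and 82.8 CPM in WT, 184, 0 and 3.06 in Sting-/- and 0.0309, 148 and 38.5 in DKO. Gbp4 thus ran from 2 to 4419 counts within WT, from 0 to 3162 within Sting-/- and from 2 to 7528 within DKO.

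Gbp9 and Gbp5 were highest in 2 WT libraries and near or at 0 in all DKO libraries. Gbp9 was at 71.6, 80.8 and 1.27 CPM in WT (2829, 2765 and 36 counts), at 0.537, 5.43 and 0 in Sting-/-, and had 0, 1 and 2 counts in DKO. Gbp5 was at 24.3, 20.8 and 0 CPM in WT, 1.92, 0 and 0 in Sting-/-, and had no count in any DKO library, where a count of 0 allows up to 3, a limit that covers counting error only. For Gbp9 the DKO and WT libraries did not overlap (adjusted p = 0.134 by edgeR, 3.83e-08 by DESeq2, exact permutation p = 0.1, the smallest possible), and the WT library nearest to DKO, replicate 3, was also the WT library with no Gbp5. Gbp5 did not pass the filter of edgeR in that comparison, and DESeq2 called it (adjusted p = 0.0225).

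Gbp2b lay higher and Gbp7 lower in every DKO than in every WT library, without passing the adjusted test. Gbp2b was at 126, 211 and 36.9 CPM in DKO against 23.2, 33.5 and 36.7 in WT, a log2 difference of 1.94 (SE 0.77, adjusted p = 0.321, exact permutation p = 0.1), where DKO replicate 3 lay only just above WT. Gbp7 was at 54.5, 29.8 and 9.80 CPM in DKO against 87.4, 195 and 101 in WT, a log2 difference of -2.07 (SE 0.79, adjusted p = 0.296, exact permutation p = 0.1). Over all 9 genes, edgeR called none in DKO against WT (0.657% of all genes called), 3 of the 8 tested had an unadjusted p under 0.05 (13.2%), and DESeq2 called 2 of 9 (13.0%). Of the 8 tested, 3 had a log2 difference above 0, where the median over all genes was -0.08. The groups were apart upwards in 1 gene (11.2% of all genes) and downwards in 2, Gbp7 and Gbp9 (13.9%). Of the marker lists, that of T and NK cells was apart, at 108 to 130 CPM in DKO and 47.1 to 60.4 in WT, with Cd3e, Cd3d, Cd3g, Cd4, Cd8a and Gzma at 0 in every library of both groups. The genes of the sort were also apart, at 885 to 1030 against 589 to 784 CPM, and the dendritic cell markers overlapped at 698 to 1190 against 478 to 847. The part of these in the levels of the family was not tested.

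In Sting-/- against WT no member was called by edgeR (0% of all genes called), none had an unadjusted p under 0.05 (4.71%), and DESeq2 called 0 (3.75%). The log2 difference was above 0 in 1 of 9 members, with a median of 0.03 over all genes. Gbp3 was the 1 gene lower in every library (7.34% of all genes), at 0.0768, 53.9 and 44.6 CPM against 102, 111.6 and 65.06, a log2 difference of -1.5 (SE 1.53, adjusted p = 1, exact permutation p = 0.1). It was -0.96 without Sting-/- replicate 1, the library at 0.0768 CPM, and -2.36 with the replicate block. In DKO against Sting-/- none was called by edgeR (0.159% of all genes called), none had an unadjusted p under 0.05 (8.30%), and DESeq2 called 0 (7.74%). Of the 7 members tested there, 6 had a log2 difference above 0, with a median of 0.06 over all genes. Both comparisons with WT share the same 3 WT libraries. The sets were counted in separate tables and were not tested against each other.

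**Figure D3:**
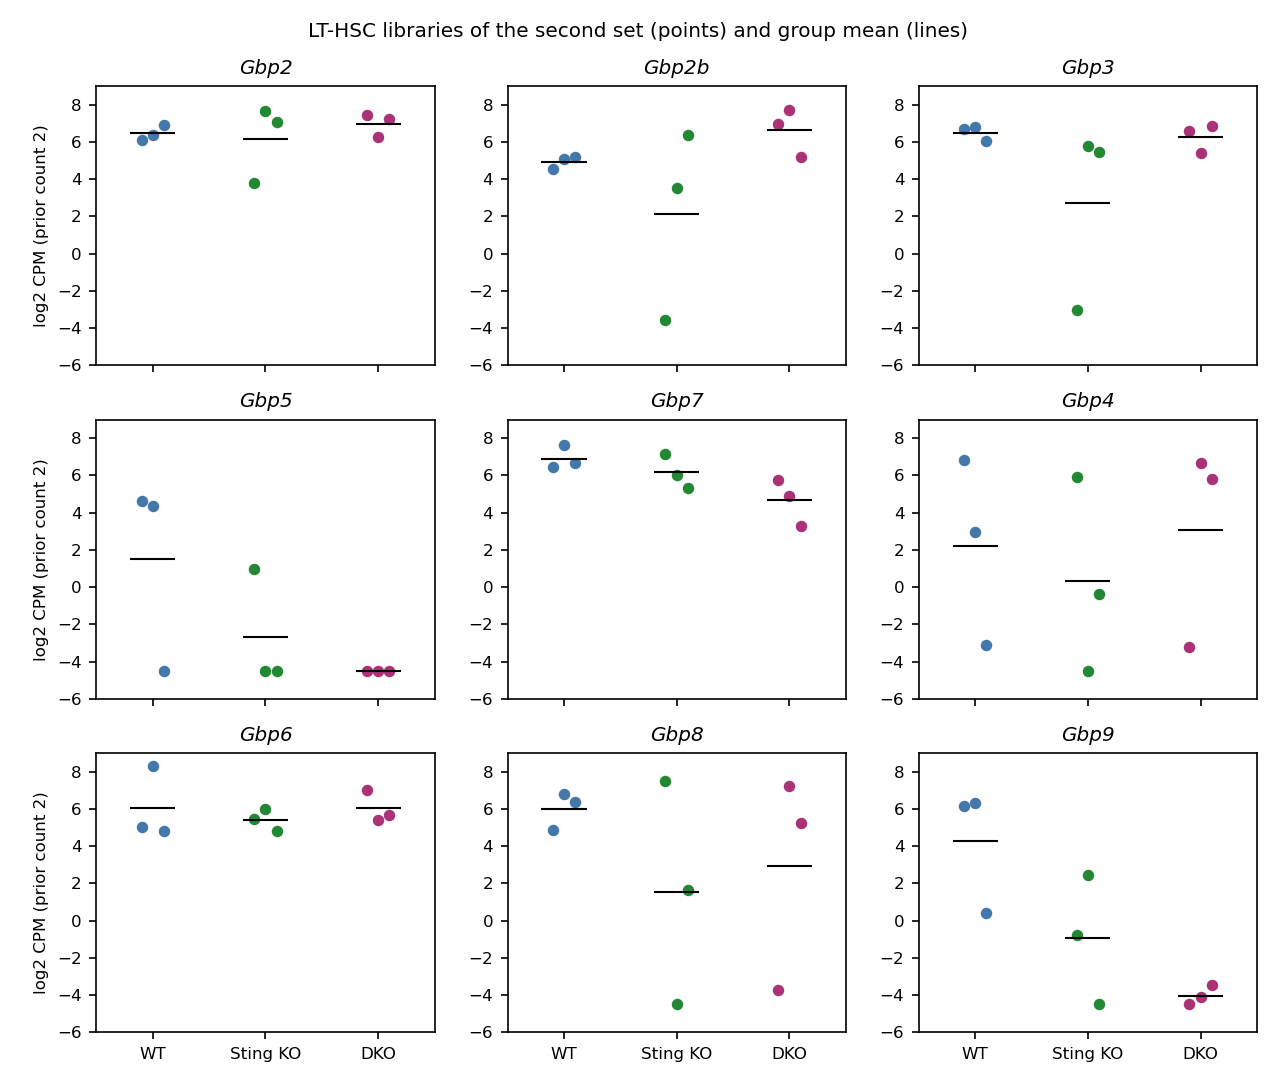
Each panel is 1 gene in the 9 LT-HSC libraries of the second set, with log2 CPM (prior count 2) on the vertical axis, libraries as points and group means as lines. The 3 DKO libraries of Gbp9 and Gbp5 lie at the bottom of the scale, while Gbp4 and Gbp8 reach from top to bottom within each mutant group.

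Across the 46 libraries of the first set, the pattern of Gbp8 was most like that of H2-Aa (Pearson r = 0.96), H2-Eb1 (0.93) and Cd74 (0.91), which serve class II antigen presentation. Gbp9 was nearest to Cd74 (0.91), H2-Eb1 (0.90) and H2-Aa (0.90), Gbp4 to Cd74 (0.93), H2-Eb1 (0.92) and Gimap3 (0.92), and Gbp6 to H2-Aa (0.87). Like these members, H2-Aa was high in WT LT-HSC (159 CPM), ST-HSC (112) and CLP (407) and low in CMP (3.65), GMP (1.83) and MEP (0.819). Gbp2 was also near to H2-Aa (0.86), beside Pdcd1lg2 (0.86) and AW112010 (0.86). Gbp7 was nearest to IRG genes, Tgtp1 (0.90), Tgtp2 (0.89) and Iigp1 (0.84). These correlations over 46 libraries describe levels that all points share by population and, possibly, mouse.

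Gbp3, with its peak in GMP, was most like Arpc1b (0.86), Serpinb1a (0.86) and Tnfrsf1a (0.84), Gbp2b was most like Zfp945 (0.92), Chm (0.88) and Bicd1 (0.87), and Gbp5 had no close match, with Zfp799 (0.64) first. With the values centred within the 12 groups, so that population and genotype drop out, Gbp7 was nearest to 1810019N24Rik (0.64) and Nck1 (0.63), and Gbp6 to Igtp (0.60), H2-Q7 (0.60) and 4930581F22Rik (0.59). Gbp2b was nearest to Spidr (0.91), Miip (0.90) and Elp4 (0.89), but their Spearman rho of 0.53, 0.60 and 0.50 was lower.

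Among the 9 genes, Gbp4, Gbp8 and Gbp9 formed the closest trio, with r = 0.93 for Gbp4 and Gbp8, 0.91 for Gbp8 and Gbp9 and 0.89 for Gbp4 and Gbp9. Their nested spans share few exonic bases. Centred within groups, the same pairs had r = 0.16, 0.28 and 0.05. Gbp2 and Gbp6, on different chromosomes, had r = 0.84 over all libraries and 0.39 within groups, and Gbp5 had at most 0.26 with any other member over all libraries.

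**Figure D4:**
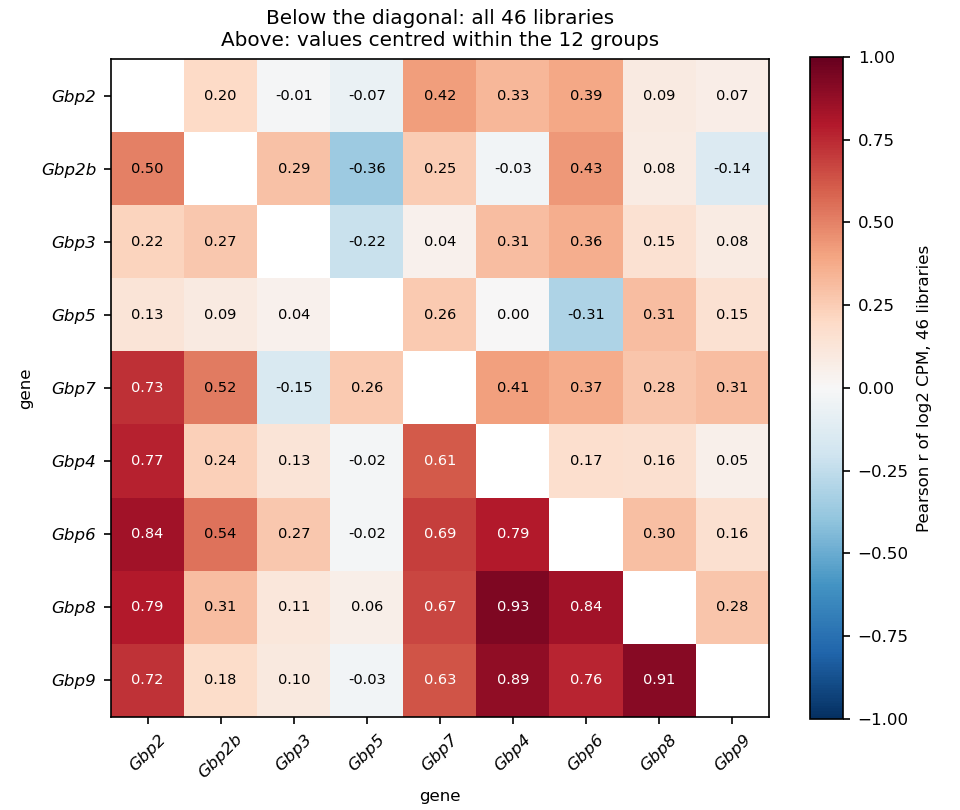
Pearson r of log2 CPM over 46 libraries for each pair of the 9 genes, with genes on both axes; squares below the diagonal use all libraries as measured and those above use values centred within the 12 groups of population and genotype. The dark block of Gbp4, Gbp6, Gbp8 and Gbp9 below the diagonal (r = 0.76 to 0.93) is pale above it.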

How the data were processed

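Sorted bone marrow cells were profiled by bulk RNA-seq after amplification with a modified SMART-Seq2 protocol. The authors used Trim Galore for trimming and Hisat2 for mapping (mm10), and deposited raw counts per gene, in whole numbers and with no normalization. The counter and its annotation, and whether reads that fit several genes were counted, are not given in the sources used here. The submitters' processing notes name Trim Galore 0.6.7, HISAT2 7.5.0, DESeq2 and the builds mm10 and mm9. Amplified reads without molecular identifiers are not independent molecules.

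Columns were matched to samples by name, and 2 broken lines of the second table were not used. The 9 genes and the lists were chosen with earlier results of these data known. Every test was fitted over all genes of a table. The test was the quasi-likelihood test of edgeR 4.0.16 (R 4.3.3) on counts that passed filterByExpr, scaled by TMM, without a replicate block, within each pair of groups, over the 23 WT libraries, or over the 46 libraries of 12 groups for averages and interactions. A call needed a Benjamini-Hochberg adjusted p under 0.05 and at least 2-fold. Fold changes against a group at or under 3 counts in every library are not given. CPM uses TMM-scaled library sizes, log2 CPM a prior count of 2, and levels per kilobase the gene lengths of the second table. Single genes had a two-sided exact permutation of libraries on mean log2 CPM. Named were all 9 genes, the targeted genes, pathway genes called in a genotype comparison or with the largest mean difference of their role, and, from the 3 genes most like each member, those that the text turns on. One gene that this rule names is not reported here. The likeness of patterns used Pearson r, with Spearman rho as alternative. Other alternatives were DESeq2 1.42.0, RLE scaling, no low-count filter, a replicate block, all groups in one fit, voom of limma 3.58.1 with the mouse label as random block, reference exon lengths (GENCODE vM21), and leaving out each replicate. Shares over all genes given beside a DESeq2 count are of the genes to which DESeq2 gave an adjusted p. Simulated counts with 200 changed genes were used to check the code. Coordinates are GENCODE vM21 on mm10, promoters RefSeq GRCm38.p6 (5 of 9 genes matched). Figures were drawn with matplotlib 3.10.9.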

Additional observations from a re-analysis of the deposited data

Results flagged for a closer look

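Of 90 combinations of a member with a group of 4 libraries, 14 had 1 library far from the other 3 by the criterion of Dixon at 95%, where chance gives about 1 in 20. Of these, 9 are combinations whose highest library is under 1 CPM, with at most 72 counts. At 1 CPM or more, the outlying libraries were Gbp3 in ST-HSC labelled knockout, replicate 5 (61.22 CPM, the highest of its group), Gbp5 in WT CLP, replicate 4 (22.0 CPM), Gbp6 in MEP labelled knockout, replicate 3 (3.702 CPM), Gbp7 in WT GMP, replicate 5 (53.05 CPM) and Gbp8 in WT CMP, replicate 3 (1.382 CPM). For Gbp5, Gbp6 and Gbp8 these single libraries hold most counts of their group.

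Under 1 CPM the outlying libraries were, for Gbp4, knockout CMP replicate 3 (0.04649 CPM), WT CMP replicate 5 (0.09118) and knockout GMP replicate 3 (0.06441), and for Gbp6, WT MEP replicate 2 (0.09834). For Gbp8 they were knockout CMP replicate 3 (0.2557 CPM), knockout MEP replicate 3 (0.4248) and WT MEP replicate 3 (0.1092), and for Gbp9, WT CMP replicate 5 (0.9378) and WT MEP replicate 3 (0.2457). All of these are outliers upwards.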

How the results depend on the processing

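Of 39 log2 differences of members with an unadjusted p under 0.05, with groups apart or with a call under an alternative, 410 alternatives were computed. Direction and call stayed the same in 384, while 18 gained a call, 6 lost one and 2 turned the direction. Both were of Gbp5 from ST-HSC to CLP in WT (0.67), which was -2.02 with the replicate block and, with 1 replicate left out, ran from -5.22 (without WT replicate 4) to 1.77 (without WT replicate 5). The number of members called moved in 20 of 188 alternatives. With DESeq2 it rose from 0 to 1 in the genotype comparisons of LT-HSC, ST-HSC, CMP, GMP and CLP, from 0 to 2 in DKO against WT, from 2 to 4 from ST-HSC to CMP in WT, from 0 to 1 from CMP to GMP and from 1 to 3 from CMP to MEP. Over all genes DESeq2 also called more, in LT-HSC 157 higher and 80 lower against 4 and 0 by edgeR. With all 46 libraries in the fit, the count from CMP to GMP was 1. In the average over populations it was 1 with voom and the mouse label as random block, where 3.21% of all genes were called. Leaving out 1 replicate moved it between 0 and 1 in CMP and in the average, between 1 and 2 from ST-HSC to CMP, between 0 and 2 from ST-HSC to CLP and between 0 and 1 from CMP to MEP, and it moved no other count by over 1.5 times. The causes were not tested. The same replicate numbers did not pair the genotypes, since samples with 1 number correlated between -0.072 and 0.035 in their deviations. With the replicate block, the count from ST-HSC to CMP was 3 in place of 2 (Gbp8, -4.54, adjusted p = 0.0366), and no other count moved. Of 54 levels per kilobase in WT, 51 moved by less than 1 SD with reference exon lengths, and the others were Gbp5 in GMP (0.329 CPM per kilobase) and MEP (0.222) and Gbp8 in LT-HSC (3.81). Gbp5 was lower by over 1.5 times with those lengths in all 6 WT populations, at 0.175 (CMP) to 0.837 (CLP), within a wide SD in the other 4. The depth at which a difference of the low genes, such as Gbp5, could be detected was not measured.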

Other observations

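Gbp10 and Gbp11, relatives on chromosome 5 outside the 9 genes, were also read. Gbp10, at chr5:105215699-105239533, shares 65.6% of its 75-base pieces with Gbp6. It had 0.142, 28.9, 1.94 and 0.606 CPM in LT-HSC labelled knockout against 0, 1.75 and 0 in WT, and 3.96, 20.6, 0.0399 and 0.627 in CLP labelled knockout against 1.14, 1.81, 0 and 0.726 in WT. In CMP, GMP and MEP it reached at most 0.258 CPM. Gbp11, at chr5:105323042-105346472 and annotated as a polymorphic pseudogene, was at 0 in most libraries and high in single ones, such as 23.4 CPM in CLP labelled knockout replicate 5, 22.5 in WT CLP replicate 3, 17.4 in LT-HSC labelled knockout replicate 5, and, in the second set, 112 CPM in WT replicate 2 and 44.98 in DKO replicate 3.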
